A study of Mus musculus with 163 samples.

Results

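The genes described here build and drive intraflagellar transport (IFT), the traffic of protein trains along the microtubules of a cilium, and the BBSome, the coat complex that rides on those trains and carries membrane proteins. They are the protein-coding genes whose symbol is Ift or Bbs followed by a number, plus 17 named parts of the same machines, and the rule found 39 genes of the 55291 in the table. By role they are 6 genes of the IFT-A complex, 10 of the core of IFT-B, 6 of its peripheral subcomplex, 2 of the dynein-2 motor, 4 of the kinesin-2 motors, 7 of the BBSome, 2 chaperonin-like genes that assist its assembly, and the GTPase genes Arl6 and Arl13b. The rule uses symbols and names only and no measured value, although it was written with earlier results of these data known.

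IFT-B trains are pulled towards the ciliary tip by kinesin-2, and trains are returned to the base by dynein-2, a step that also needs IFT-A. Arl6 recruits the BBSome to membranes, and mutations in BBSome genes cause Bardet-Biedl syndrome. A cochlear hair cell carries a single true cilium, the kinocilium, beside its actin-based stereocilia. The kinocilium helps to set the orientation of the hair bundle and is lost from cochlear hair cells as they mature.

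The cells were hair cells positive for Tdtomato, picked by hand from the mouse cochlea at postnatal day 7, with full-length cDNA made from each. Controls (Ctrl) have the genotype label Atoh1P2A-Tdtomato/+, and mutants (Exp) the label Atoh1P2A-Cre/P2A-Tdtomato/+; Rbm24flox/flox, which the series design writes without the /+. Cre is expressed from Atoh1, a gene of differentiating hair cells, so Cre and a second modified Atoh1 allele differ between the genotypes together with the loss of Rbm24, which encodes an RNA-binding protein. There were 43 control and 56 mutant outer hair cells (OHC), and 38 control and 26 mutant inner hair cells (IHC). In the labels' protocol the picked cells are named endogenous IHCs and, without explanation of the prefix, iOHCs. No label names an animal or says how a cell was assigned to OHC or IHC, so each group is 1 sample, cells are not replicates, and no p-value is given.

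Counts per cell ranged from 5467115 to 18072166, and the median cell was deeper in mutants (12763907 in OHCs and 14186061 in IHCs) than in controls (9088352 and 8673120). The median share of mitochondrially encoded counts was lower in mutants (4.36% in OHCs and 4.77% in IHCs) than in controls (6.04% and 7.52%). Rbm24 checked the genotype labels. It stood at 315 CPM (counts per 1000000 counts) in control OHCs against 0.212 in mutant OHCs, and at 431 against 1.51 in IHCs, and the lowest control cell (78.8 CPM, an OHC) lay above the highest mutant cell (15.6 CPM, an IHC). The labelled cell types were checked with Tbx2, a transcription factor of IHCs, at 0.546 and 2.15 CPM in control and mutant OHCs and 186 and 154 CPM in the IHC groups. The prestin gene Slc26a5, whose product drives OHC motility, stood at 376 CPM in control OHCs, 27.5 in mutant OHCs and under 1 CPM in both IHC groups, and 1 control OHC had only 0.156 CPM of it. The marker lists as a whole separated the mutant cell types less than these single genes: 8 OHC markers summed to 8085 CPM in control and 1354 in mutant OHCs, beside 1437 and 1298 in IHCs. The 8 IHC markers summed to 9384 CPM in control and 4234 in mutant IHCs, beside 4207 and 1435 in OHCs. Cells with Y-linked transcripts numbered 32 among control and 16 among mutant OHCs, and 26 and 7 among IHCs. Cells with Xist numbered 10 and 34 among OHCs and 12 and 19 among IHCs, so the mix of sexes differed with genotype.

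Relative to total counts, these genes summed higher in both mutant cell types than in their controls. The level of all 39 genes, each divided by its exon length and then summed, had a median of 708 CPM per kb in control OHCs (lowest cell 374, highest 1089) and 1096 in mutant OHCs (591 to 1488). In IHCs the median was 1087 in controls (841 to 1435) and 1419 in mutants (999 to 1759). The sum weighs genes by level, and in control IHCs Arl6 (226 CPM per kb), Ift20 (197) and Kifap3 (156) stood highest. Summed in the same way, the cytoplasmic motors described below had medians of 839 and 987 in control and mutant OHCs. In IHCs these were 935 and 984. For the 39 genes, the cell ranges of the genotypes overlapped in both cell types. Of the mutant OHCs, 54 of 56 lay above the control median and 29 above every control cell, and of the mutant IHCs 25 of 26 and 11 did so. A median cell had 24 of the 39 genes at 10 CPM or more in control OHCs, 26 in mutant OHCs, 25 in control IHCs and 28.5 in mutant IHCs, and these medians were the same after every cell was thinned to 5467115 counts.

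**Figure D1:**
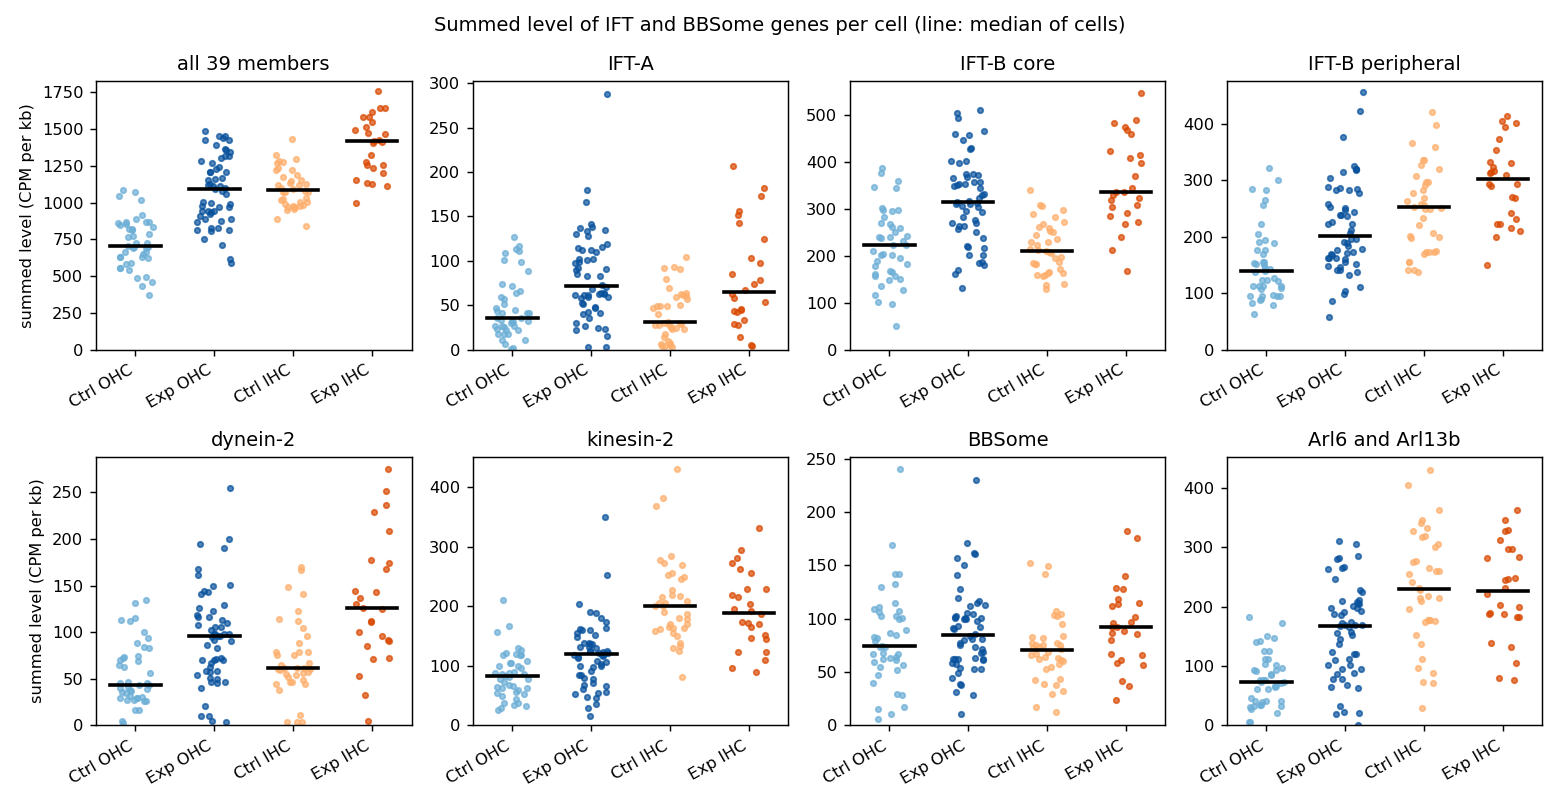
Summed level in CPM per kb of all 39 genes and of 7 role groups, 1 point per cell, with the median of the cells as a line, for control and mutant OHCs and IHCs. For all 39 genes the medians are 708, 1096, 1087 and 1419, and for the BBSome they are 74.6, 84.8, 70.2 and 92.1.

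In OHCs, 38 genes reached 1 CPM in the mean of both groups, and their median log2 ratio of mutant to control was 0.54, beside 0.06 over the 14588 genes at that level. Of the 38, 29 were higher in mutants and 9 lower (76.3% higher, beside 53.2% of all genes, of which 46.8% were lower), or 28 and 10 under the scaling factors of edgeR or DESeq2. At 1.5-fold or more, 18 were higher (47.4%, beside 27.5% of all genes) and 1 was lower (2.63%, beside 21.5%). At 2-fold or more, 8 were higher (21.1%, beside 18.4%) and 1 was lower (2.63%, beside 13.1%). At this filter the share 2-fold or more higher is thus near that of all genes, while the median and the share past 1.5-fold lie above theirs. With a filter of 5 CPM, all 38 genes stayed, with 8 higher (beside 13.4% of all genes) and 1 lower (beside 8.78%). The differences were moderate in size and mostly in 1 direction.

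IHCs gave the same picture, with a median log2 ratio of 0.66 over 38 genes beside 0.11 over 14557. Mutants were higher for 30 and lower for 8 (78.9% higher, beside 55.9% of all genes, of which 44.1% were lower), or 27 and 11 under either scaling. At 1.5-fold or more, 21 genes were higher (55.3%, beside 28.9%) and 1 was lower (2.63%, beside 19.5%). At 2-fold or more, 7 were higher (18.4%, beside 18.8%) and 0 were lower (beside 11.7%). With a filter of 5 CPM these were again 7 (beside 13.3%) and 0 (beside 7.17%). The edgeR factors moved the median of all genes down by 0.06 in OHCs and by 0.11 in IHCs, and the medians of the 38 genes were then 0.48 and 0.55.

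The comparisons in OHCs and IHCs use separate cells, but no label says whether the animals were separate too. Of the 38 genes, 24 were higher in mutants in both (63.2%, beside 36.7% of 13224 genes). At 1.5-fold or more in both, there were 14 (36.8%, beside 14%): Arl13b, Bbs12, Dync2h1, Dync2li1, Ift140, Ift172, Ift22, Ift27, Ift43, Ift57, Ift74, Ift88, Traf3ip1 and Ttc26. Past 2-fold in both were Ift43, Ift57 and Traf3ip1, and this share (3 of 38) is near the 7.94% of all genes. Bbs10, Ift52 and Ttc30a1 were lower in both (27.9% of all genes), and 11 genes had opposite signs. As a description across genes, which are not independent, the ratios in OHCs and IHCs had a Pearson r of 0.56 over the 38 genes and 0.36 over all genes. In each of 11 alternative settings in OHCs and 10 in IHCs (other scalings, subsets of cells by sex or by other markers, and outlying cells left out), 15 genes stayed higher in mutants in both cell types: Arl13b, Bbs4, Cluap1, Dync2h1, Dync2li1, Ift22, Ift27, Ift43, Ift57, Ift74, Ift81, Ift88, Kif3a, Traf3ip1 and Ttc26. No gene stayed lower in mutants in both cell types. The subsets by sex and by the pseudogene Gm15772 overlap. All 16 mutant OHCs and 7 mutant IHCs with Y-linked transcripts are those low in Gm15772, so these are not separate settings for mutants.

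**Figure D2:**
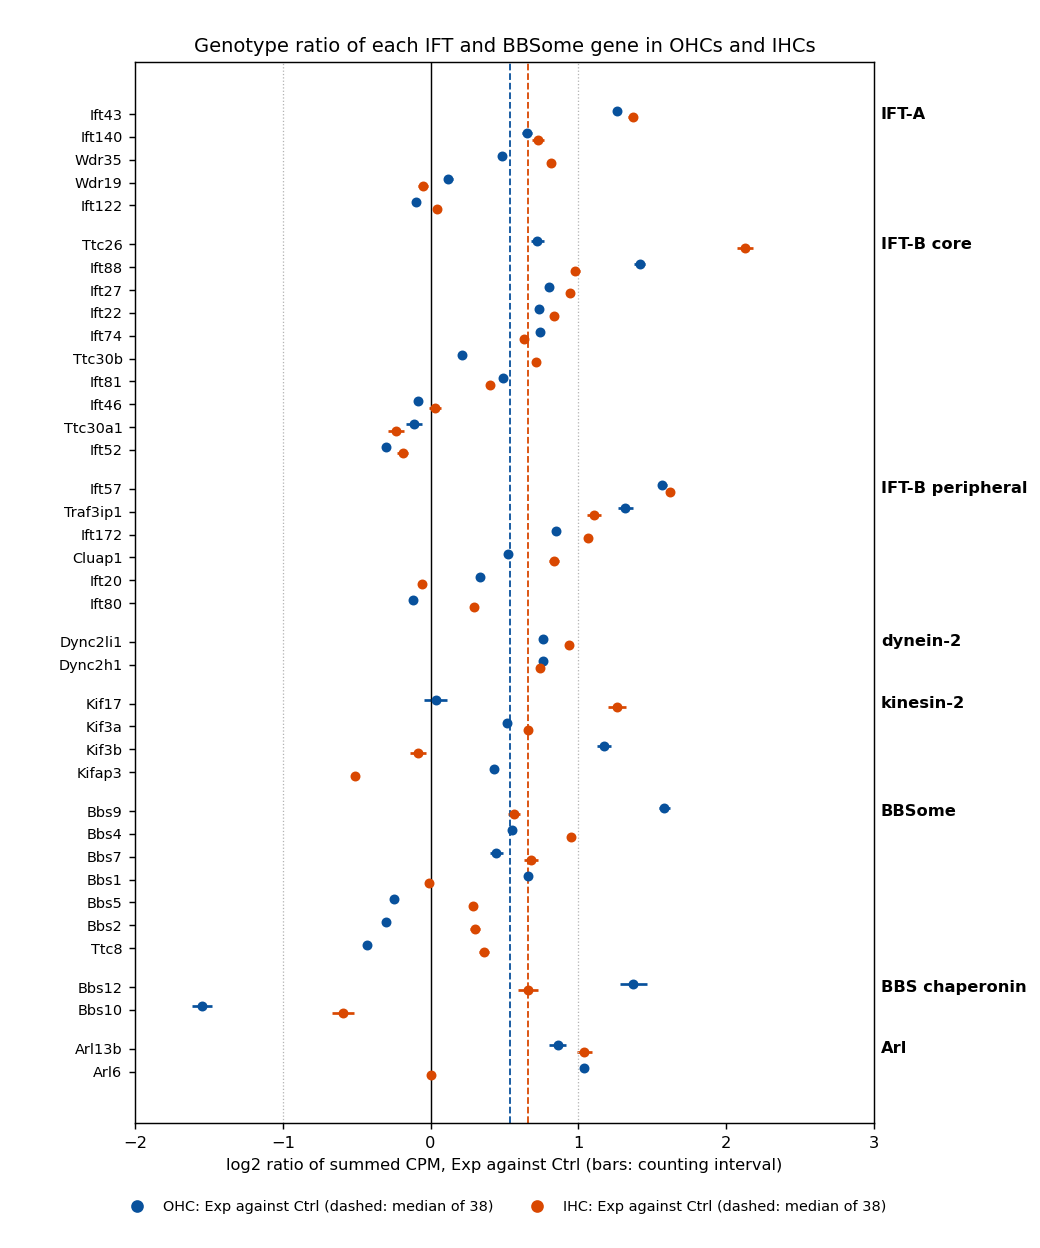
Log2 ratio of summed CPM, mutant against control, for 38 genes grouped by role, in OHCs (blue) and IHCs (orange), with bars for the 95% counting interval, dotted lines at 2-fold and dashed lines at the medians of 0.54 and 0.66. Of 16 IFT-B genes, 12 sit to the right of 0 in OHCs and 13 in IHCs, and of 7 BBSome genes 4 and 6. Of 4 kinesin-2 genes 4 and 2 do, with Kif17 in OHCs at only 0.03.

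The promoters of 34 of the 39 genes are in the RefSeq table used here (GRCm38.p6, 250 bases before to 50 after the start site). Ift122, Ift81, Ttc30b, Ift80 and Dync2li1 are not among them. RFX transcription factors are known to bind the X-box, a pair of short inverted repeats found near the start of many ciliary genes, so 2 patterns were searched on both strands: the 6-base repeat GTTGCC, and a paired form written as GT, any 2 bases, CC, any 3 bases, G, any base, AAC. They overlap, since a paired form can hold the repeat. All 27025 genes with a promoter served as background, with no filter by level or coding type, while the members are all protein-coding. The paired form was in 6 of the 34 promoters (17.6%, beside 2.49% of 27025 genes), and the repeat in 15 (44.1%, beside 14.1%). Other lists described below also held them: the paired form was in 47.4% of transition zone, 25% of motile axoneme and 7.69% of cytoplasmic motor promoters, and the repeat in 52.6%, 39.3% and 30.8%. Among the 13 matched genes of the 14 that were 1.5-fold or more higher in both cell types, 9 had the repeat. Of the other 21, 6 had it. The paired form differed less, with 3 of the 13 (23.1%) and 3 of the other 21 (14.3%). A match is a description of these letters, and the genes were not tested against each other. In 4 genes the paired form lay within 150 bases before the RefSeq start site. They are printed here, 5′ to 3′ on the gene's strand, because the whole match lies in that stretch, with the paired form in capitals.
Bbs7: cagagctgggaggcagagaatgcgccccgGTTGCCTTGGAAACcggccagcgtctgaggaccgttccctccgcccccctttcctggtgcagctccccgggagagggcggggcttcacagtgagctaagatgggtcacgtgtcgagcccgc
Ift22: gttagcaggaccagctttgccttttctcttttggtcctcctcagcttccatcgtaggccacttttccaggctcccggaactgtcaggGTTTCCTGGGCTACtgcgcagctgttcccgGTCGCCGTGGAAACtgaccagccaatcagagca
Ttc26: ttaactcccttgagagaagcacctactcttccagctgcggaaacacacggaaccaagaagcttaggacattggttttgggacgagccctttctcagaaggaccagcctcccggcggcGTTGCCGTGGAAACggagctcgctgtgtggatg
Ift57: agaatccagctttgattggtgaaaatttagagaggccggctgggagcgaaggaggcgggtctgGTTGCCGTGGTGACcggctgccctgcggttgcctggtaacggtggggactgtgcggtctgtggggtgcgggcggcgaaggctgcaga
These are chr3:36613390-36613539 (minus strand) for Bbs7, chr5:136908000-136908149 (plus) for Ift22, chr6:38381374-38381523 (plus) for Ttc26 and chr16:49699144-49699293 (plus) for Ift57. Ift22 has 2 matches, and Ttc26 and Ift57 are among the genes with the largest ratios below, while Bbs7 is not, with log2 ratios of 0.45 and 0.68. In Bbs1 and Bbs4 the paired form lay after the start site, beginning at bases 2 and 24, so it was near the start there too. Gene positions given below come from GENCODE, whose starts can differ from those of RefSeq. In Ttc26 the paired form lies after the GENCODE start at 38381469.

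IFT-A was led by Ift43, a small subunit (ENSMUSG00000007867.9, chromosome 12, 86082541 to 86162459, plus strand). In OHCs it ran from 0 over a median of 26.6 to 137 CPM in control cells and from 0 over 66.6 to 334 in mutant cells. Its summed level was 33.0 CPM (95% counting interval 32.5 to 33.6) in controls and 79.3 (78.6 to 79.9) in mutants, a log2 ratio of 1.26 (1.24 to 1.29). The ranges overlapped, and 42 of 56 mutant OHCs lay above the control median. In IHCs the cells ran from 0 over 20.5 to 130 CPM in controls and from 0 over 53.3 to 304 in mutants, a log2 ratio of 1.37 (1.34 to 1.40), with 19 of 26 mutant cells above the control median. These intervals, here and below, cover the counting error of reads only. Without molecular identifiers the reads cannot be counted as separate molecules, so the error in molecules is not covered. The spread between animals is not in them either.

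The other IFT-A genes split. Ift140 was higher in both mutants (log2 ratio 0.65 in OHCs and 0.73 in IHCs), though among OHCs with Xist or high in the pseudogene Gm15772 it was not. Wdr35, which encodes IFT121, was at 0.48 and 0.82, again not among OHCs with Y-linked transcripts or low in Gm15772. Wdr19, which encodes IFT144, and Ift122 were near level, at 0.12 and -0.10 in OHCs and -0.05 and 0.05 in IHCs, where Ift122 turned below 0 under either scaling. Ttc21b, which encodes IFT139, was the 1 member under the filter. It had 0 counts in control OHCs, 5 in mutant OHCs and 2 in control IHCs, against 589 in mutant IHCs (1.61 CPM). Of those 589 counts 54.7% came from 1 cell, and 2 of 26 cells reached 10 CPM.

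In the core of IFT-B, Ift88 (ENSMUSG00000040040.16, chromosome 14, 57424062 to 57517936, plus strand) encodes a scaffold subunit whose loss is known to stop cilia from forming and to misorient hair bundles. Control OHCs ran from 0 over a median of 4.21 to 79.7 CPM, and mutant OHCs from 0 over 27.7 to 193. The summed level was 17.9 CPM in controls and 47.8 in mutants, a log2 ratio of 1.42 (1.38 to 1.45), and it kept this direction past 2-fold in all 11 alternatives. At 10 CPM or more were 21 of 43 control and 37 of 56 mutant OHCs, so the ranges overlapped while more mutant cells were high. In IHCs the median cell was at 35.5 CPM in controls and 59.0 in mutants, and the log2 ratio was 0.98 (0.95 to 1.01). Exons of Ift88 share 67 bases with an antisense gene, and the strand setting of the counting is not given in the sources used here.

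Ttc26, which encodes IFT56, had the largest ratio of all members past the filter, in IHCs (ENSMUSG00000056832.14, chromosome 6, 38381469 to 38427647, plus strand). Its control IHCs ran from 0 over a median of 0.119 to 85.9 CPM, and its mutant IHCs from 0 over 2.96 to 198. Summed, it stood at 9.04 CPM in controls and 39.6 in mutants, a log2 ratio of 2.13 (2.07 to 2.19). Most cells were low in both genotypes: 9 of 38 control and 11 of 26 mutant IHCs reached 10 CPM, so the higher sum lay in a minority of cells. Its ratio in OHCs was 0.72, from 13.6 to 22.4 CPM.

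The small GTPase genes Ift22 and Ift27 and the tubulin-binding partners Ift74 and Ift81 were detected in most cells. Ift22 ran from 40.1 over a median of 132 to 443 CPM in control OHCs and from 43.8 over 242 to 506 in mutant OHCs, and its log2 ratio was 0.74 there and 0.83 in IHCs. Every OHC of either genotype had it at 10 CPM or more. Ift27 was at 0.80 and 0.94, Ift74 at 0.74 and 0.63, and Ift81 at 0.49 and 0.40, in OHCs and IHCs. Ift27 forms a pair that links the BBSome to trains. Ift46 was at -0.09 and 0.03, but ranged from -0.70 to 1.02 over the alternatives in OHCs and from -0.99 to 0.83 in IHCs. Its IHC value was below 0 under either scaling. Ift52, which joins parts of the core, was lower in both (-0.30 and -0.19). Among IHCs with Xist or high in Gm15772, however, Ift52 was above 0. Ttc30a1 (-0.11 and -0.23) and Ttc30b (0.21 and 0.71) encode near-identical copies of IFT70. Their reads may have been divided between them or lost, so both values are uncertain. Ttc30a1 was also above 0 among cells with Y-linked transcripts in both cell types, and among IHCs with Xist.

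The peripheral subcomplex of IFT-B, which binds kinesin-2, held 2 of the 3 members past 2-fold in both cell types. Ift57 (ENSMUSG00000032965.11, chromosome 16, 49699233 to 49765126, plus strand) ran from 0 over a median of 16.1 to 176 CPM in control OHCs and from 0 over 72.7 to 396 in mutant OHCs. Its summed level was 24.8 CPM (24.3 to 25.3) in controls and 73.6 (72.9 to 74.2) in mutants, a log2 ratio of 1.57 (1.54 to 1.60). At 10 CPM or more were 23 of 43 control and 44 of 56 mutant OHCs. In IHCs the cells ran from 0 over 36.3 to 138 CPM in controls and from 0 over 115 to 324 in mutants, a log2 ratio of 1.62 (1.60 to 1.65), with 24 of 26 mutant cells above the control median. The promoter of Ift57, printed above, holds the paired form and a further copy of the repeat.

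Traf3ip1, which encodes IFT54, was a low gene (ENSMUSG00000034292.13, chromosome 1, 91494647 to 91529307, plus strand). Control OHCs ran from 0 over a median of 0.095 to 124 CPM and mutant OHCs from 0 over 14.1 to 123, so the highest cells were alike and the typical cell was not. The summed levels of 9.95 and 24.8 CPM gave a log2 ratio of 1.32 (1.27 to 1.37), which ranged from 0.08 to 3.22 over the alternatives. In IHCs the median cell was at 0.404 CPM in controls and 25.1 in mutants, the highest at 104 and 161, and the log2 ratio was 1.11 (1.06 to 1.16). Cells at 10 CPM or more were 13 of 38 and 15 of 26.

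Ift172, the largest peripheral subunit, ran from 0 over a median of 46.4 to 118 CPM in control IHCs and from 0 over 64.6 to 460 in mutant IHCs. The summed levels of 45.7 and 95.8 CPM gave a log2 ratio of 1.07 (1.04 to 1.10). It turned to -0.32 among IHCs with Y-linked transcripts and to -0.22 among IHCs low in Gm15772, sets that hold the same 7 mutant cells, and 22.7% of its counts in mutant IHCs came from 1 cell. In OHCs its log2 ratio was 0.85 and stayed above 0 in every alternative. Cluap1, which encodes IFT38, was at 0.53 in OHCs and 0.84 in IHCs, and 3 other genes overlap its exons. Ift80 was at -0.12 and 0.29. Ift20, the subunit that also sits at the Golgi, was at 0.34 and -0.06.

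**Figure D3:**
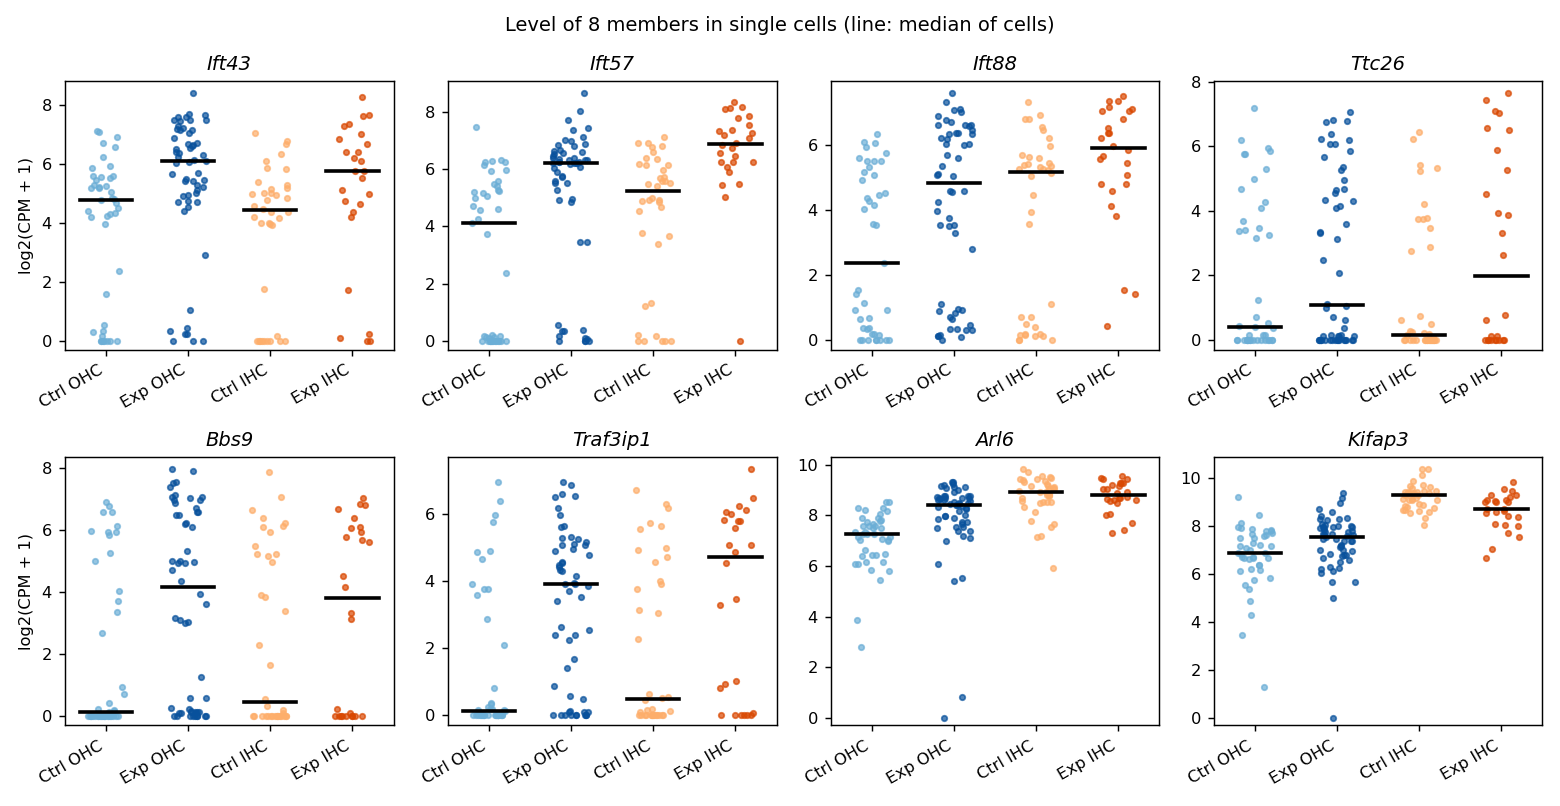
Levels of 8 genes in single cells as log2(CPM + 1), with the median of the cells as a line, for control and mutant OHCs and IHCs. Ift43, Ift57 and Traf3ip1 have higher medians in both mutants, Arl6 is higher in mutant OHCs with no difference in IHCs, and Kifap3 is higher in mutant OHCs and lower in mutant IHCs.

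The dynein-2 genes were higher in both mutants by similar amounts. Dync2li1, the light intermediate chain (ENSMUSG00000024253.9, chromosome 17, 84626496 to 84655588, plus strand), ran from 0 over a median of 64.9 to 241 CPM in control OHCs and from 0.220 over 143 to 425 in mutant OHCs. Its log2 ratio was 0.76 (0.74 to 0.78), and 49 of 56 mutant OHCs lay above the control median. In IHCs the median was 96.7 CPM in controls and 206 in mutants, with ranges of 0 to 305 and 0.0812 to 474, and the log2 ratio was 0.94 (0.92 to 0.95). Dync2h1, the heavy chain that carries the motor domain, was at 0.76 in OHCs and 0.74 in IHCs. Over both genes the summed level per cell had a median of 43.8 CPM per kb in control OHCs and 95.8 in mutant OHCs, and of 61.4 and 126 in IHCs.

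Of the 4 kinesin-2 genes, Kif3a, Kif3b and Kifap3 were higher in mutant OHCs, by unequal amounts, and Kif17 was level there. In mutant IHCs 2 of 4 were higher. Kif3a, a motor subunit of the heterotrimer, was higher in both mutants, at 0.52 and 0.66. Its partner Kif3b (ENSMUSG00000027475.9, chromosome 2, 153291413 to 153333390, plus strand) ran from 0 over a median of 0 to 110 CPM in control OHCs and from 0 over 0.245 to 217 in mutant OHCs, a log2 ratio of 1.17 (1.12 to 1.22). Only 7 of 43 control and 20 of 56 mutant OHCs reached 10 CPM. In IHCs Kif3b was at 16.2 CPM in controls and 15.3 in mutants (-0.08), with medians of 4.33 and 0.0635 and highest cells of 88.1 and 145. Per length Kif3b stood far below Kif3a, at 1.79 against 45.6 CPM per kb in control OHCs.

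Kifap3, which encodes the cargo-binding subunit KAP3, was the 1 member that kept opposite directions in all alternatives. It ran from 1.45 over a median of 117 to 583 CPM in control OHCs and from 0 over 187 to 666 in mutant OHCs, a log2 ratio of 0.43 (0.41 to 0.44). In IHCs it ran from 264 over 623 to 1316 in controls and from 102 over 419 to 897 in mutants, a log2 ratio of -0.51 (-0.52 to -0.51), and 5 of 26 mutant cells lay above the control median. Control IHCs had 4.21 times the level of control OHCs, and mutant IHCs 2.19 times that of mutant OHCs. No control OHC lay above the IHC median, although the ranges overlapped.

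Kif17, the homodimeric kinesin-2, was low and present in few cells. Control IHCs ran from 0 over a median of 0 to 61.2 CPM and mutant IHCs from 0 over 0.0846 to 164, a log2 ratio of 1.27 (1.20 to 1.33), with 28.6% of the mutant counts in 1 cell and 8 of 26 mutant cells at 10 CPM or more. In OHCs it was level (0.03), at a median of 0 in both genotypes and highest cells of 76.3 and 124 CPM, and its sign turned in 6 of the 11 alternatives. Its exons share 74 bases with Sh2d5.

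Of the 7 BBSome subunits, 4 were higher in mutant OHCs and 6 in mutant IHCs. Bbs9 (ENSMUSG00000035919.16, chromosome 9, 22475715 to 22888280, plus strand) ran from 0 over a median of 0.103 to 118 CPM in control OHCs and from 0 over 16.7 to 247 in mutant OHCs. Its summed levels of 17.8 and 53.4 CPM gave a log2 ratio of 1.58 (1.55 to 1.62), the largest of the members in OHCs. At 10 CPM or more were 13 of 43 control and 30 of 56 mutant OHCs. In IHCs the medians were 0.357 and 12.8 CPM and the highest cells 234 and 128, and its log2 ratio of 0.56 turned negative when only cells with Y-linked transcripts, or only those low in Gm15772, were kept.

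Bbs4 was higher in both mutants (0.55 and 0.95) and shares exon bases with Adpgk. Bbs7 was at 0.45 and 0.68. Bbs1 was at 0.66 in OHCs, though not among those with Xist, and at -0.01 in IHCs. The other 3 subunits were lower in mutant OHCs and higher in mutant IHCs: Bbs2 at -0.30 and 0.30, Bbs5 at -0.25 and 0.29, and Ttc8, which encodes BBS8, at -0.43 and 0.36. Bbs2 and Bbs5 turned below 0 in mutant IHCs, and Bbs2 and Ttc8 above 0 in mutant OHCs, among cells with Xist. Bbs2 was also above 0 in mutant OHCs among cells with Y-linked transcripts, so neither set by sex kept it lower there. Together the 7 subunits had a median of 74.6 CPM per kb in control OHCs and 84.8 in mutant OHCs, with 70.2 and 92.1 in IHCs, and wide overlap in each.

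The chaperonin-like genes were held by few cells and had opposite directions. Bbs10 (ENSMUSG00000035759.4, chromosome 10, 111298679 to 111301727, plus strand) ran from 0 over a median of 0 to 117 CPM in control OHCs and from 0 over 0 to 99.0 in mutant OHCs. Its log2 ratio of -1.55 (-1.62 to -1.48) was the only one past 2-fold lower. It rested on 9 of 43 control and 3 of 56 mutant cells at 10 CPM or more, with 57.4% of the mutant counts in 1 cell, and it was 2.18 where only cells with Xist were kept and 1.45 where only those high in Gm15772 were. In IHCs Bbs10 ran from 0 over 0 to 141 CPM in controls and to 55.9 in mutants, a log2 ratio of -0.59. Bbs12 ran from 0 over a median of 0 to 57.2 CPM in control OHCs and to 159 in mutant OHCs, a log2 ratio of 1.37 (1.28 to 1.47), with 3 and 8 cells at 10 CPM or more, and it ranged from 0.98 to 1.63 over the alternatives. In IHCs it was at 0.66, below 0 among cells under 50 CPM of supporting cell markers, with medians of 0 and highest cells of 89.5 and 101 CPM. Its exons overlap Cetn4 and a second gene.

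Arl6 (ENSMUSG00000022722.18, chromosome 16, 59612949 to 59639391, minus strand), also named BBS3, was among the 2 highest members per length in every group. Control OHCs ran from 5.86 over a median of 153 to 364 CPM, and mutant OHCs from 0 over 341 to 641. Its summed level was 162 CPM (161 to 163) in controls and 333 (332 to 335) in mutants, a log2 ratio of 1.04 (1.03 to 1.05), with 48 of 56 mutant OHCs above the control median. In IHCs it ran from 59.6 over 482 to 905 CPM in controls and from 156 over 443 to 759 in mutants, and the summed levels were 474 in both (log2 ratio 0.00, -0.01 to 0.01, and below 0 under either scaling). Control OHCs were thus 2.92-fold below control IHCs, and mutant OHCs 1.42-fold below mutant IHCs. The exons of Arl6 share 55 bases with 4930547E14Rik.

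Arl13b, a GTPase of the ciliary membrane, was low in all groups. Control IHCs ran from 0 over a median of 0.0526 to 58.8 CPM and mutant IHCs from 0 over 6.57 to 128, a log2 ratio of 1.04 (0.99 to 1.09). At 10 CPM or more were 14 of 38 control and 13 of 26 mutant IHCs. In OHCs the medians were 0 and 0.0320 CPM, the highest cells 81.2 and 114, and the log2 ratio 0.86.

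Per exon length, Ift20 and Arl6 led in every group, with 106 and 77.3 CPM per kb in control OHCs and 197 and 226 in control IHCs. Kifap3 came next in control IHCs (156) and stood at 37.1 in control OHCs. Ift74 (54.4), Dync2li1 (47.8), Kif3a (45.6) and Ift22 (42.2) followed in control OHCs, and their order there is within the spread of single cells. Kif17 (1.15) and Ttc21b (0) stood last in control OHCs.

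Between the control cell types the 38 genes had a median log2 ratio of OHC to IHC of -0.13, beside 0.04 over all genes. None was 2-fold or more higher in OHCs (15.3% of all genes), and 4 were 2-fold or more lower (beside 13.4%): Kifap3 (-2.07), Arl6 (-1.55), Bbs12 (-1.55) and Ift88 (-1.03). Ift52 was highest in OHCs relative to IHCs among IFT-B core genes (0.73), and Bbs4 among BBSome genes (0.73). Between the mutant cell types the median was -0.26, with 0 genes 2-fold or more higher (14% of all genes) and 2 lower (beside 14.5%), Kif17 (-1.96) and Kifap3 (-1.13). At 1.5-fold, 4 genes were higher and 10 lower in control OHCs (beside 24.6% and 21% of all genes), and 1 and 10 in mutant OHCs (beside 22.1% and 22.8%). The 4 comparisons share groups, so these values are given side by side only.

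Other genes of the cilium give the surroundings of these values. Over all genes, 18.4% in OHCs and 18.8% in IHCs were 2-fold or more higher in mutants, and 13.1% and 11.7% were lower. Of 21 further IFT, BBSome and motor parts past the filter in OHCs, 5 were 2-fold or more higher in mutants (23.8%) and 0 lower. Their median was 0.59. In IHCs 5 of 22 were higher (22.7%) and 1 lower, with a median of 0.38. Dynlrb2, a dynein light chain shared with motile cilia, stood at 118 CPM in control and 570 in mutant OHCs (2.28) and at 132 and 496 in IHCs (1.91). Mak, a kinase that limits ciliary length, was at 2.01 and 2.34. Tulp3, an adaptor between IFT-A and membrane receptors, was at 2.74 in OHCs and 0.23 in IHCs, and Kif3c at 0.46 and 2.27.

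The transition zone, the gate at the ciliary base, had medians of 0.45 in OHCs and 0.46 in IHCs. Of its 20 genes, 4 were 2-fold or more higher in OHCs (20%, beside 18.4% of all genes). In IHCs 5 were (25%, beside 18.8%), and 0 were lower in either cell type. Tmem237 was at 1.74 and 1.70 and B9d1 at 1.56 and 1.08, while Nphp4 was at 2.16 in OHCs and -0.43 in IHCs and Tmem67 at 0.43 and 1.73. Ciliary membrane and Hedgehog genes had medians of 0.68 and 0.48. In OHCs 5 of 10 were higher (50%) and 0 lower, and in IHCs 2 of 7 (28.6%) and 0. Smo was at 2.48 and 6.60 CPM in OHCs (1.41) and 0.778 and 10.5 in IHCs (3.76), and Gli2 at 0.123 and 6.14 in OHCs (5.65), with a log2 ratio of 0.49 in IHCs. Evc2 was at 0.08 and 1.14, and Sufu at 1.02 and 0.45.

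Genes of the motile axoneme, the dynein arms, radial spokes and central pair that bend a cilium, stood furthest apart. In OHCs 24 of 31 were 2-fold or more higher in mutants (77.4%, beside 18.4% of all genes) and 0 lower, with a median of 2.02. In IHCs 28 of 32 were higher (87.5%, beside 18.8%) and 0 lower, with a median of 2.29. Dnah9, an outer arm dynein heavy chain, was at 0.0651 CPM in control and 15.1 in mutant OHCs (7.86) and at 0.364 and 37.3 in IHCs (6.68). Dnah6 was at 5.39 and 4.43, the radial spoke gene Rsph4a at 2.35 and 6.32, and Tekt4 at 2.09 and 6.19. Cytoplasmic dynein, dynactin and kinesin genes, which serve transport outside the cilium, had medians of 0.04 and 0.12. In OHCs 1 of 17 was higher (5.88%) and 2 lower (11.8%, beside 13.1% of all genes). In IHCs 2 of 16 were higher (12.5%) and 0 lower. Among them Dync1i1 was at -2.62 in OHCs and under the filter in IHCs, Kif5a at -1.60 and 0.99, Kif1a at 1.05 and 1.42, and Kif1b at 0.10 and 1.10.

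**Figure D4:**
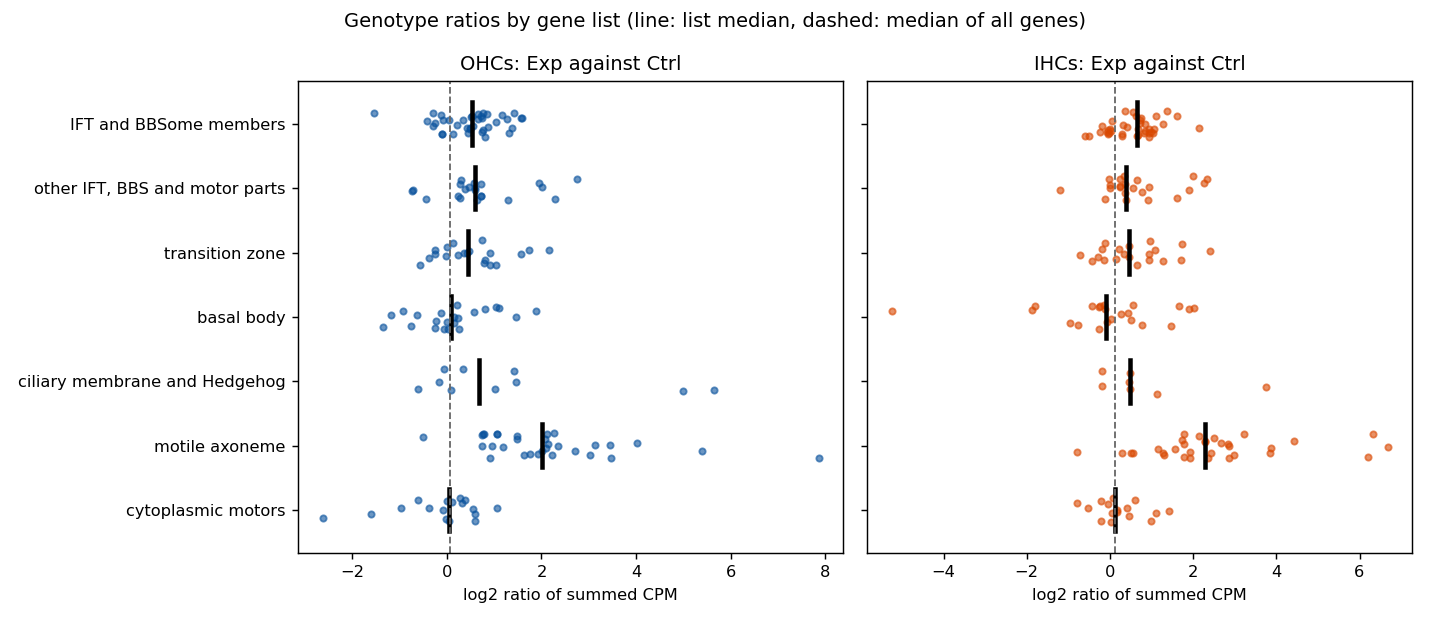
Log2 ratio of summed CPM, mutant against control, 1 point per gene past 1 CPM, for 7 gene lists in OHCs and IHCs, with list medians as lines and the median of all genes dashed. The IFT and BBSome genes (0.54 and 0.66) lie between the cytoplasmic motors (0.04 and 0.12) and the motile axoneme genes (2.02 and 2.29).

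Within the OHC groups, cells high in axoneme genes were also high in IFT and BBSome genes. Spearman's rho between the 2 summed levels across cells was 0.72 in 43 control OHCs and 0.74 in 56 mutant OHCs, with Pearson's r at 0.50 and 0.71. In IHCs rho was 0.13 in 38 control and 0.18 in 26 mutant cells. The sum of the members weighs most those highest per length, which in control IHCs were Arl6, Ift20 and Kifap3. Against the cytoplasmic motors rho was -0.02 in control OHCs and 0.10 in mutant OHCs, and -0.36 and -0.17 in the IHC groups. These are descriptions with no test: the cells of a group share animals that are not named, and both sums share a cell's total.

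**Figure D5:**
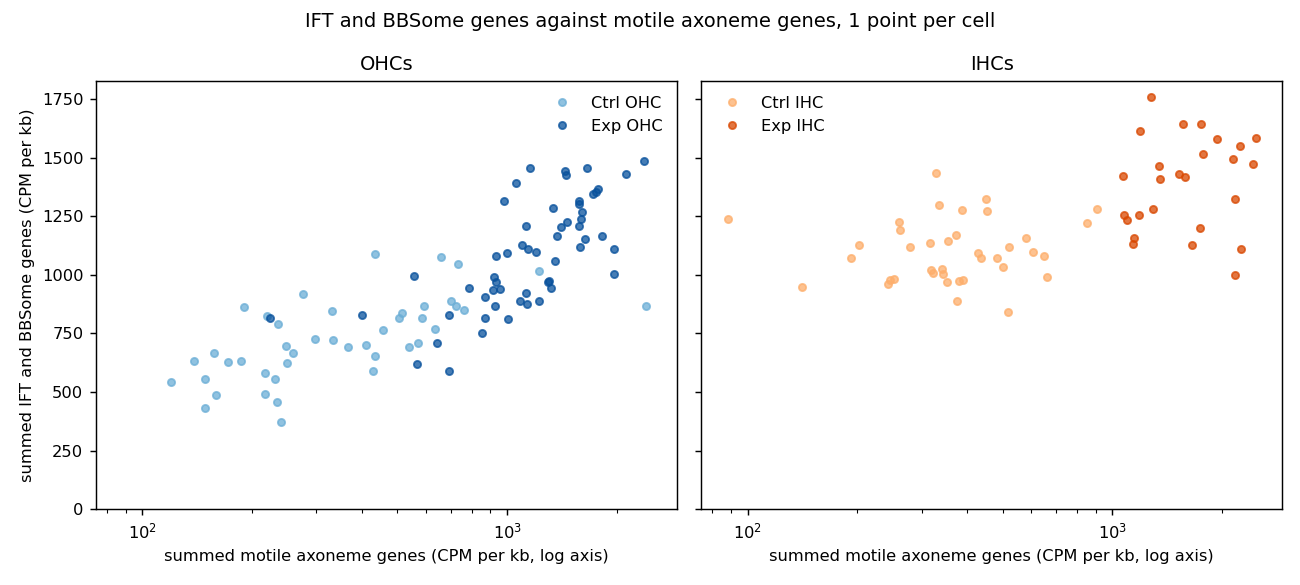
Summed level of the 39 genes against the summed level of motile axoneme genes (log axis), both in CPM per kb, 1 point per cell. OHCs form a rising band in both genotypes, while mutant IHCs lie at 1068 or more on the axoneme axis and control IHCs at 906 or less.

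Markers of other cells were counted in the same groups. Of 10 genes typical of multiciliated cells, the summed level was 179 CPM in control and 1174 in mutant OHCs, and 194 and 1274 in IHCs, while Rarres2, Sec14l3 and Ccdc153 were at 0 in all 4. The lowest to highest cell was 0.205 to 1183 CPM in control OHCs, 257 to 3129 in mutant OHCs, 13.4 to 581 in control IHCs and 585 to 1892 in mutant IHCs. Dynlrb2 of that list is also described above. Supporting cell markers (12 genes) summed to 123 CPM in control OHCs (cells from 0 to 1653), 37.8 in mutant OHCs (0 to 327), 178 in control IHCs (0 to 1781) and 24.2 in mutant IHCs (0.0703 to 83.4). Otog and Gjb6 were at 0 in both mutant groups, and Hes1 and Tecta also in mutant IHCs. With only the cells under 50 CPM of these markers, the median log2 ratio of the IFT and BBSome genes was 0.50 in OHCs and 0.66 in IHCs. Neuron markers (8 genes, Prph at 0 in all 4 groups) summed to 418 CPM in control OHCs (cells from 73.5 to 970) and 1041 in mutant OHCs (380 to 1652), and to 735 in control IHCs (412 to 1143) and 1440 in mutant IHCs (551 to 2740). Immune markers (7 genes) summed to 110 CPM in control OHCs (cells from 0 to 476) and 275 in mutant OHCs (0 to 789), and to 122 in control IHCs (0 to 293) and 289 in mutant IHCs (45.7 to 622). C1qa was at 0 in both mutant groups and in control OHCs, Lyz2 in both mutant groups, Csf1r in mutant OHCs, Ptprc in mutant IHCs and Tyrobp in control IHCs. The part of the multiciliated, neuron and immune markers in the result was not tested.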

How the data were processed

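The authors deposited raw read counts per gene, 1 column for each of 163 hair cells. Reads were processed with HISAT2 2.2.1, SAMtools and featureCounts 2.0.1 on mm10, per the submitters' processing notes. The annotation release and the strand setting are not given in the sources used here, and the full-length cDNA carried no molecular identifiers, per the labels' protocols. Symbols and positions come from GENCODE M21 (GRCm38), which matched 99.5% of the genes, and the unmatched genes held 0.0128% of counts.

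For each group the counts of its cells were added up and scaled by their total (348518300 to 720407678 counts) to give CPM, with exact Poisson 95% intervals. Log2 ratios have exact conditional binomial intervals. A gene needed 1 CPM in the mean of the groups compared, a floor of 3 counts stood for 0, and a call was a 2-fold difference. CPM per kb divides by exon length. With 1 sample per group no test was run, so nothing here measures the spread between animals. Every member is named, with values per cell for those past 2-fold at 5 CPM or more and the furthest of each role. From each related list up to 4 genes with the largest ratio at 5 CPM or more are named. Kifap3 is described per cell, and the genes given between cell types were picked, after their values were seen. The members and lists were chosen with earlier results of these data known. Alternatives were edgeR 4.0.16 and DESeq2 1.42.0 scaling (R 4.3.3), subsets of cells, other filters and folds, and thinned counts. The split by Gm15772 came from earlier results, and the supporting cell and Slc26a5 settings were chosen after seeing the data. The formulas for ratios and intervals were checked on simulated Poisson counts, which leave out the spread between cells and between animals. Other values used Python 3.11.15 with pandas 2.3.3, numpy 2.4.6 and scipy 1.17.1, and figures matplotlib 3.10.9.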

Additional observations from a re-analysis of the deposited data

Results flagged for a closer look

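Of the 11 genes whose mutant-to-control log2 ratio had opposite signs in OHCs and IHCs, 9 had counting intervals off 0 in both cell types (Bbs1 and Ift46 did not). These intervals leave out the spread between animals. With 1 sample per group, none of these differences was tested. The OHC ratio less the IHC ratio was 1.26 for Kif3b (1.17 and -0.08) and 0.94 for Kifap3 (0.43 and -0.51), the subunits of heterotrimeric kinesin-2 besides Kif3a. It was 0.40 for Ift20 (0.34 and -0.06) and 0.17 for Wdr19 (0.12 and -0.05). In the other direction it was -0.79 for Ttc8 (-0.43 and 0.36), -0.61 for Bbs2 (-0.30 and 0.30) and -0.53 for Bbs5 (-0.25 and 0.29), which are all BBSome subunits. It was -0.41 for Ift80 (-0.12 and 0.29) and -0.14 for Ift122 (-0.10 and 0.05). Of the 9, Kifap3 kept its directions in both cell types in all alternatives, 11 in OHCs and 10 in IHCs.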

How the results depend on the processing

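No paired analysis was possible because the results come from no test, and cell numbers shared between groups only number the picked cells. The median ratio of the 38 genes ranged from 0.47 to 0.74 in OHCs and from 0.42 to 0.66 in IHCs. In OHCs 24 genes and in IHCs 23 kept their direction in all settings. Bbs10 in OHCs turned to 2.18 (cells with Xist) and 1.45 (cells high in Gm15772), and Ift172 in IHCs to -0.32 (cells with Y-linked transcripts) and -0.22 (cells low in Gm15772). The cause was not tested, and these subsets hold as few as 7 cells, with the same mutant cells in the Y-linked and the low Gm15772 set. Numbers of genes past the fold moved by over 1.5 times as follows. At 1.5-fold, 18 genes were higher in mutant OHCs, and 21 were higher and 1 lower in mutant IHCs. For control OHCs against IHCs 4 were higher and 10 lower at 1.5-fold, and for mutants 1 and 10. Among cells high in Gm15772, 2 genes were lower in mutant OHCs. Beside it, 17.9% of all genes were lower in that set. In mutant IHCs 13 genes were higher with the Y-linked set and 13 with the set low in Gm15772, or 12 and 12 without Ttc21b, which passed the filter only there (24.7% and 25.9% of all genes). Control OHCs against IHCs had 1 (Y-linked), 2 (Xist), 3 (low) and 3 (high) genes higher, beside 16.3%, 21.5%, 17.1% and 19.5% of all genes, and 8 (Xist) and 10 (low) lower, beside 20.5% and 17.5%. Mutant OHCs against IHCs had 3 (Y-linked) and 3 (low) higher, and 7 (Y-linked), 5 (Xist), 7 (low) and 4 (under 50 CPM of supporting cell markers) lower. Without Ttc21b the 7 and 7 are 6 and 6. Of all genes 21.5% were higher in the Y-linked and low sets, and 18.7%, 16.5%, 18.7% and 16.4% lower. With protein-coding genes as background, 16.9% were 2-fold or more higher in either mutant cell type.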

Other observations

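Transcription factors of ciliary genes differed among themselves. In OHCs 4 of 11 were 2-fold or more higher in mutants (36.4%, beside 18.4% of all genes) and 1 lower (9.09%, beside 13.1%). In IHCs 4 of 9 were higher (44.4%, beside 18.8%) and 0 lower. The median log2 ratios were 0.15 in OHCs and 0.82 in IHCs. Foxj1, the factor of the motile cilium programme, stood at 9.89 CPM in control and 27.1 in mutant OHCs (1.45) and at 9.70 and 28.7 in IHCs (1.57). Rfx2 stood at 0.390 and 10.6 CPM in OHCs (4.77) and at 3.62 and 20.3 in IHCs (2.49). Rfx3 was at 0.72 and 0.71, and Rfx5 at -0.05 and 1.57. Myb stood at 0.0801 and 5.09 CPM in OHCs (5.99). Foxn4, in contrast, was at 10.3 CPM in control and 0.440 in mutant OHCs (-4.55).

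Basal body and centriole genes had medians of 0.08 in OHCs and -0.09 in IHCs. In OHCs 4 of 22 were 2-fold or more higher in mutants (18.2%, beside 18.4% of all genes) and 2 lower (9.09%, beside 13.1%). In IHCs 4 of 22 were higher (18.2%, beside 18.8%) and 3 lower (13.6%, beside 11.7%). Ccp110, which caps centrioles, stood at 55.6 and 205 CPM in OHCs (1.88) and was at 0.27 in IHCs. Cep152 was at 1.10 and 2.02, Cep135 at -0.23 and -1.89, and Fbf1 at -1.18 and 1.90.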
